A study of Homo sapiens with 24 samples.

Results

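SMAD1 and 9 related genes of the transforming growth factor beta (TGF-beta) and bone morphogenetic protein (BMP) pathways were measured in P3HR1, an established Burkitt lymphoma line, by 39 of the 54613 probe sets of the array that are no controls (10 of 19775 genes). A probe set was taken where the platform annotation gave it one of these symbols and no other, and each is reported separately. Of the 39, 28 were above a filter on dim probe sets, a mean log2 intensity over 6.108. The 10 genes are SMAD1 to SMAD7, TGFBR1, TGFBR2 and BMPR2. SMAD1 was picked because it differed between miR-28 and control cells on these same arrays, so its genotype differences are given as a description with no test. The other genes were tested as single probe sets among all 27306 above the filter.

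The 24 arrays covered 4 groups of 6, which were miR-28 and control cells after 12 h and miR-28 and control cells after 24 h of doxycycline. miR-28 cells carried the pRTS1 vector with green fluorescent protein (GFP) and the miR-28 precursor, and control cells carried pRTS1 with GFP and no precursor. Each vector was present in 2 bulk populations, A and B, and each population was induced 3 times at each time. No array held uninduced cells, and a difference already there before induction cannot be told apart from one that followed it. The dose is labelled 0.1 ug/ml in the treatment field and 1 ug/ml in the source field, alike in all groups. The replicates are repeated inductions of 2 populations per vector, and the p-values rest on the spread between those inductions, not between many independent lines. In these bulk samples, fewer cells with a transcript and less of it per cell cannot be told apart.

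SMAD proteins carry signals from receptors at the cell surface to the nucleus. Ligands of the TGF-beta and BMP families join type II receptors (TGFBR2, BMPR2) to type I receptors (TGFBR1 among them), which phosphorylate receptor-regulated SMADs. SMAD1 and SMAD5 serve mainly the BMP branch and SMAD2 and SMAD3 the TGF-beta branch, SMAD4 is the partner common to both, and SMAD6 and SMAD7 inhibit the signal. In B cells, TGF-beta signalling is known for restraining growth and for its part in class switching to IgA.

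miR-28 is encoded in an intron of LPP. Its precursor gives the 2 mature RNAs miR-28-5p and miR-28-3p. Only the 3p sequence is shown here, since the RefSeq set of mature miRNAs used did not hold miR-28-5p. The 3p sequence (GRCh38.p14, chr3:188688834-188688855, + strand) is 22 bases long and has its seed, bases 2 to 8, in capitals. No other of the 2370 mature miRNAs of that set has the same seed. Whether any transcript below carries a site for it was not tested.

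hsa-miR-28-3p: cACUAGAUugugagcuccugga

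The trimmed means of all arrays lay between 500.07 and 500.08. That reflects a common scaling and is no sign that the arrays were alike. Median intensities ran from 73.2 to 93.2. Pairs of arrays of a group correlated with r between 0.940 and 0.960, and no 2 arrays held identical values. The log2 ratio of 3' to 5' ACTB control signal, a sign of RNA quality, was above 1 on 2 arrays, miR-28 B2 at 12 h (1.05) and control B2 at 24 h (1.59). The 5 B-cell markers with a probe set had a median intensity of 10050. T-cell, myeloid, NK-cell and fibroblast or epithelial markers had medians of 63.57, 62.33, 34.92 and 92.4. The brightest of each list were CD3E (89.82), CSF1R (84.63), NCAM1 (103.2) and DCN (515.4). The dimmest T-cell and myeloid markers were CD8A (14.57) and CD14 (19.11). Above the filter were 1 of 5 T-cell, 2 of 4 myeloid, 1 of 4 NK-cell and 3 of 6 fibroblast or epithelial markers.

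SMAD1 had lower signal in miR-28 cells at both times on both of its probe sets above the filter, at 0.423 to 0.54 of the control level. On 210993_s_at at 12 h, the 6 miR-28 arrays read 389.2 at the lowest, 419 at the median and 474.7 at the highest, against 690.1, 863.9 and 1064 on the 6 control arrays. All miR-28 arrays were below all control arrays, and the miR-28 arrays lay close together while the control arrays spread widely. The means were 427.5 ± 29.67 in miR-28 cells and 863.8 ± 156.8 in control cells (SD, n = 6 each), a log2 fold change of -0.98 ± 0.18 (SE; 95% interval -1.37 to -0.60).

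At 24 h, 210993_s_at read 237.6 at the lowest, 344.3 at the median and 491 at the highest in miR-28 cells, against 632.6, 729.3 and 1199 in control cells. The groups again had no array in common range. The means were 355.9 ± 114.9 in miR-28 cells and 839.9 ± 234.8 in control cells (SD, n = 6 each), a log2 fold change of -1.24 ± 0.18 (95% interval -1.62 to -0.86). Over all probe sets tested, 0.37% at 12 h and 1.36% at 24 h had every miR-28 array below every control array. Nothing is read from these shares, since SMAD1 was chosen on this contrast.

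The 6 miR-28 arrays at 24 h fell into a lower and an upper set on this probe set. Inductions A1, B3 and B2 read 237.6, 257 and 264.8, and inductions A3, B1 and A2 read 423.7, 461.5 and 491. Each set held inductions of both populations, so the split did not follow the population. No such gap was present in miR-28 cells at 12 h, where the values ran from 389.2 to 474.7. The split at 24 h was not repeated on the other SMAD1 probe set above the filter, 227798_at. There A1, B3 and B2 read 124, 171.2 and 189.4, and A3, B1 and A2 read 138.7, 97.32 and 120.5.

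**Figure D1:**
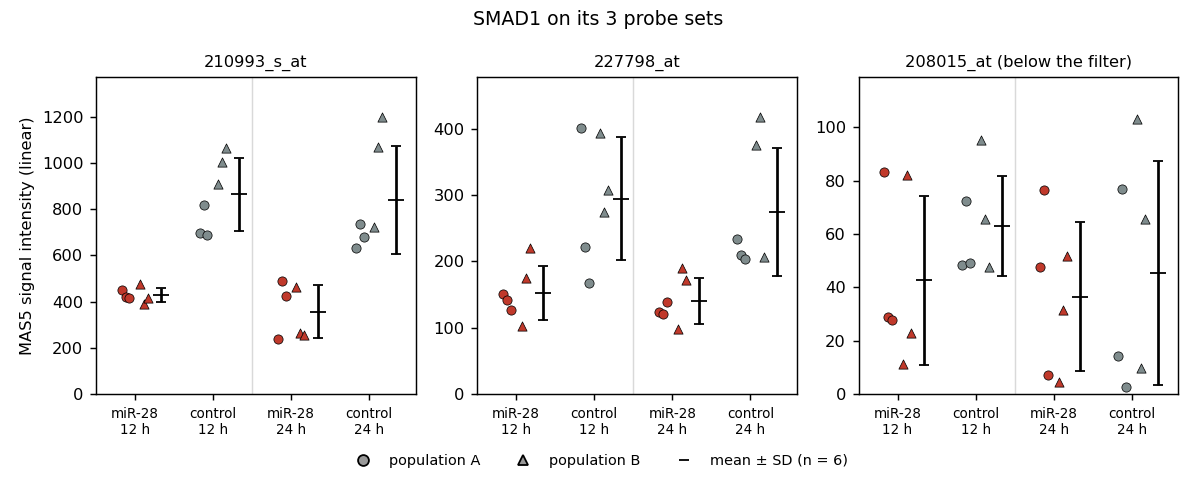
SMAD1 signal (MAS5 intensity, linear axis from 0, a separate scale for each panel) on each of the 24 arrays for its 3 probe sets; circles are population A, triangles population B, and bars the mean ± SD of 6 arrays. On 210993_s_at the miR-28 arrays lie at 237.6 to 491 and the control arrays at 632.6 to 1199 over both times.

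The second probe set above the filter, 227798_at, gave dimmer signal. At 12 h it read 102.8, 145.8 and 219.8 (lowest, median and highest) in miR-28 cells, against 167.6, 290.6 and 401.6 in control cells. The ranges overlapped there, because control induction A3 (167.6) lay below the 2 highest miR-28 arrays. The log2 fold change was -0.89 ± 0.23 (95% interval -1.36 to -0.42).

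At 24 h 227798_at read 97.32, 131.3 and 189.4 (lowest, median and highest) in miR-28 cells, against 203.1, 221.4 and 418.1 in control cells. Here all miR-28 arrays were below all control arrays. The log2 fold change was -0.90 ± 0.23 (95% interval -1.37 to -0.43). The third probe set, 208015_at, was below the filter with means of 36.5 to 63.04 in the 4 groups, and without the filter its differences were -0.68 ± 0.55 at 12 h and -0.08 ± 0.55 at 24 h. All 3 probe sets had a difference below 0 at both times, and for 208015_at it was smaller than 2 standard errors.

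Of the 39 probe sets, the dimmest above the filter was BMPR2 209920_at at a mean log2 intensity of 6.50, and the brightest below it was SMAD2 239271_at at 6.09.

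The SMAD1 levels are given here by population. At 12 h, 210993_s_at averaged 428.5 ± 16.76 in miR-28 population A and 426.5 ± 43.78 in miR-28 population B, against 734.5 ± 72.38 in control population A and 993.2 ± 77.76 in control population B (SD, n = 3 each). At 24 h it averaged 384.1 ± 131.3 in miR-28 population A and 327.8 ± 115.8 in miR-28 population B, against 683 ± 52.5 in control population A and 996.9 ± 247.3 in control population B (SD, n = 3 each). The miR-28 populations lay near each other, and control population B lay above control population A at both times.

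With the populations of the same letter set against each other, the log2 fold change of SMAD1 210993_s_at was -0.76 in A and -1.21 in B at 12 h, and -0.88 in A and -1.60 in B at 24 h. The letters are not known to pair miR-28 with control populations. The difference between populations, which did not choose SMAD1, was tested within each vector over both times. It was 0.11 ± 0.17 (A minus B; 95% interval -0.25 to 0.47; limma adjusted p 1) in miR-28 cells and -0.47 ± 0.17 (95% interval -0.83 to -0.11; limma adjusted p 0.517) in control cells. For 227798_at it was -0.19 ± 0.22 (adjusted p 1) in miR-28 cells and -0.46 ± 0.22 (adjusted p 0.681) in control cells.

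The comparison of 24 h with 12 h asked whether the level of each gene moved while induction went on. For SMAD1 it rests on the arrays that also chose the gene, so its values are given with no test. On 210993_s_at the difference of 24 h over 12 h was -0.32 ± 0.19 (95% interval -0.72 to 0.08) in miR-28 cells and -0.06 ± 0.19 (-0.46 to 0.34) in control cells. On 227798_at it was -0.11 ± 0.23 (-0.59 to 0.38) in miR-28 cells and -0.10 ± 0.23 (-0.59 to 0.39) in control cells. The 4 intervals all held 0. The miR-28 difference at 24 h less that at 12 h was -0.26 (95% interval -0.82 to 0.31) on 210993_s_at and -0.01 (-0.70 to 0.68) on 227798_at.

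In order of mean level on 210993_s_at, the groups ran from control cells at 12 h and control cells at 24 h down to miR-28 cells at 12 h and miR-28 cells at 24 h. The 2 control groups overlapped, and so did the 2 miR-28 groups, while the middle step between control cells at 24 h and miR-28 cells at 12 h was free of overlap. Without the 2 arrays of high ACTB ratio, on which SMAD1 210993_s_at read 389.2 (miR-28 B2, 12 h) and 1070 (control B2, 24 h), the log2 fold changes were -0.96 at 12 h and -1.15 at 24 h.

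The 2 SMAD1 probe sets followed each other through the group difference and not within groups. Over the 24 arrays they correlated with r = 0.65, and after the mean of each group was taken off r was -0.10. Of 22041 probe sets of other single genes, 182 followed 210993_s_at more closely over the 24 arrays than did the second SMAD1 probe set. These correlations share the arrays and, over the raw values, the genotype difference that chose SMAD1.

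The closest over the 24 arrays were VAMP3, a vesicle fusion protein (r = 0.90), ATPAF1, an assembly factor of the mitochondrial ATP synthase (0.87), HDLBP, an RNA-binding protein (0.87), JAGN1, a protein of the endoplasmic reticulum (0.86), and SPCS3, a subunit of the signal peptidase (0.85). Such an r favours probe sets with the genotype difference of SMAD1, so their lower signal in miR-28 cells is no separate result. The log2 fold changes at 12 h and 24 h were -0.36 and -0.57 for VAMP3, -1.17 and -1.37 for ATPAF1, and -0.42 and -0.95 for HDLBP. They were -0.36 and -0.67 for JAGN1, and -0.81 and -0.97 for SPCS3. After group means were taken off, the closest were ACTR3B (0.74), the actin-depolymerising factor DSTN (0.74), the growth factor gene PDGFD (0.70), TMEM185A (0.70) and the small GTPase gene RHEB (0.70). They are the highest of 22041 probe sets, whose median r was -0.01. Of these, 14066 had a higher r than the second SMAD1 probe set. Whether the highest values exceed what so many probe sets give by chance was not tested. The lists before and after group means were taken off shared no gene.

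The other 9 genes had 36 probe sets, of which 26 were above the filter. In miR-28 against control cells at 12 h, limma called 0 of the 26 at an adjusted p under 0.05, where it called 0.165% of all probe sets tested, 0.121% lower and 0.0439% higher. At an unadjusted p under 0.05 there were 2 of 26, both lower, against 8.02% of all. At 24 h limma called 0 of the 26, against 2.75% of all (1.48% lower and 1.27% higher), and 3 had an unadjusted p under 0.05, against 15.7% of all. In none of the 26 did the 6 miR-28 arrays all lie above or all below the 6 control arrays at either time, where 0.3% of all at 12 h and 1.11% at 24 h lay all above.

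The median log2 fold change of the 26 was -0.11 at 12 h (0.00 over all probe sets tested), with 19 below and 7 above 0, and 0.02 at 24 h (0.01 over all), with 10 below and 16 above. The 95% interval lay within 1 log2 unit of 0 for 19 of 26 probe sets at 12 h and 21 of 26 at 24 h, and within 0.5 for 14 and 15. The interval reached beyond 1 log2 unit for the other 7 at 12 h and the other 5 at 24 h.

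**Figure D2:**
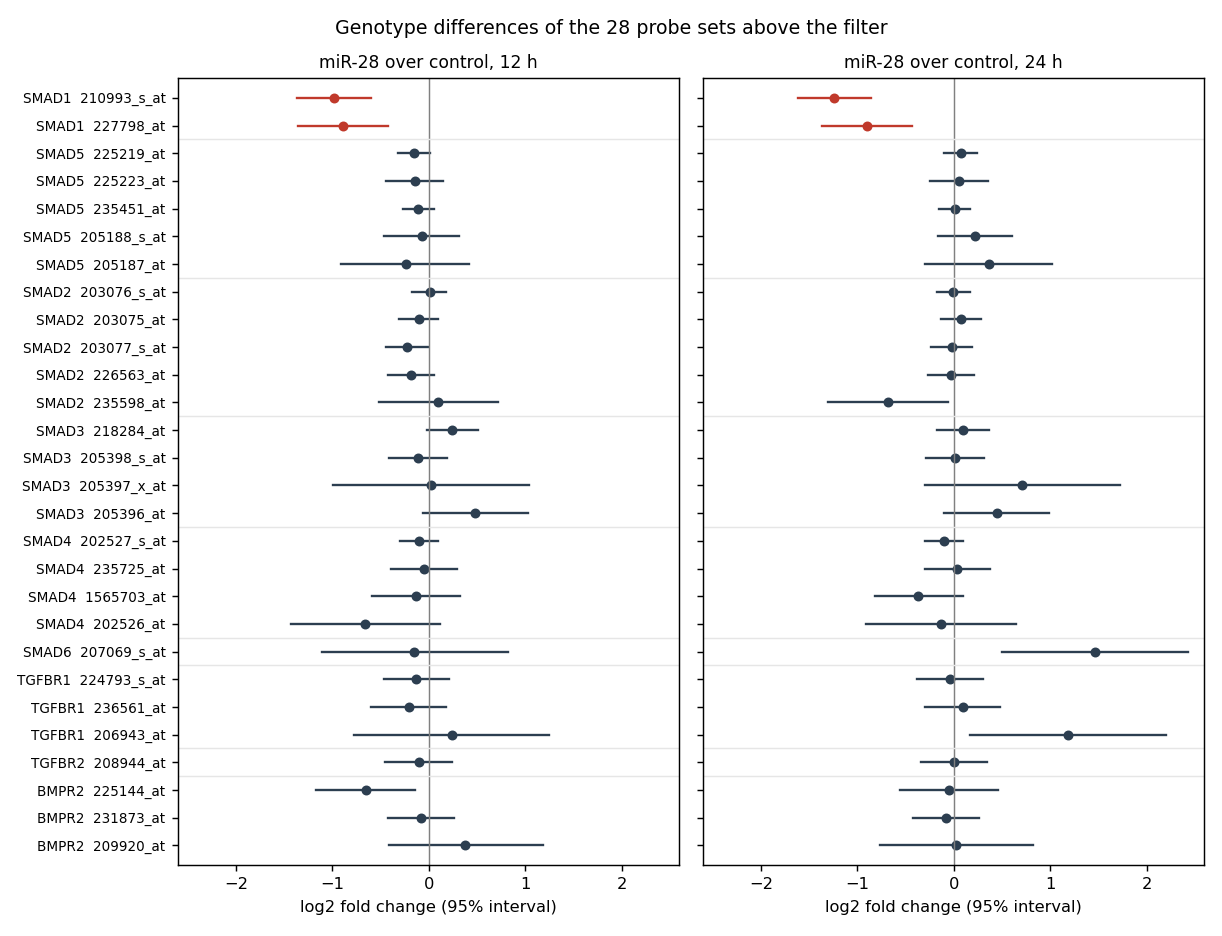
Log2 fold change of miR-28 over control with its 95% interval for the 28 probe sets above the filter, at 12 h (left) and 24 h (right), red for SMAD1. The 2 SMAD1 probe sets lie at -0.98 and -0.89 at 12 h and at -1.24 and -0.90 at 24 h, and the other 26 run from -0.66 to 0.48 at 12 h and from -0.68 to 1.46 at 24 h.

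SMAD5, the BMP-branch relative of SMAD1, had all 5 of its probe sets above the filter. Its brightest, 225219_at, read 2292, 2402 and 2638 (lowest, median and highest) in miR-28 cells at 12 h, against 2600, 2710 and 2859 in control cells, and the ranges overlapped slightly. The difference was -0.15 ± 0.08 at 12 h (95% interval -0.32 to 0.01; limma adjusted p 0.677). At 24 h it read 2392, 2624 and 2789 in miR-28 cells, against 2129, 2416 and 3150 in control cells, a difference of 0.07 ± 0.08 (-0.10 to 0.24; adjusted p 0.74). Across the 5 probe sets the log2 fold changes ran from -0.24 to -0.07 at 12 h and from 0.01 to 0.36 at 24 h. None passed, with lowest adjusted p-values of 0.677 and 0.623.

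SMAD9, the third receptor-regulated SMAD of the BMP branch, averaged 264.6 ± 64.57 in miR-28 cells and 253.9 ± 72.12 in control cells at 12 h on 227719_at (SD, n = 6 each). At 24 h it averaged 224 ± 91.53 in miR-28 cells and 293.1 ± 91.45 in control cells. Its differences of 0.07 and -0.41 did not pass in limma (adjusted p 0.984 and 0.457). The other SMAD9 probe set, 206320_s_at, is not described here.

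SMAD2, a TGF-beta-branch SMAD, was bright on 203076_s_at. It read 2410, 2586 and 2928 (lowest, median and highest) in miR-28 cells at 12 h, against 2142, 2562 and 3019 in control cells. At the later time it read 2229, 2624 and 2713 in miR-28 cells, against 2245, 2559 and 2900 in control cells. The groups overlapped almost wholly at both times, and the differences were 0.01 ± 0.09 (95% interval -0.17 to 0.18) and -0.01 ± 0.09 (-0.18 to 0.17).

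Of the other SMAD2 probe sets, 203077_s_at was at -0.23 ± 0.10 at 12 h (limma adjusted p 0.587), 1 of the 2 with an unadjusted p under 0.05 there. The dim 235598_at was at -0.68 ± 0.30 at 24 h (adjusted p 0.261), with 45.86, 154.1 and 211.7 in miR-28 cells, against 124.9, 240.3 and 288 in control cells. That difference was -1.37 between the A populations and 0.00 between the B populations. The remaining SMAD2 values above the filter lay between -0.19 and 0.10.

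SMAD3, the other TGF-beta-branch SMAD, read 644.7, 785 and 1129 (lowest, median and highest) on 218284_at in miR-28 cells at 12 h, against 559.5, 683.9 and 846.9 in control cells. The difference was 0.24 ± 0.13 (95% interval -0.02 to 0.51; limma adjusted p 0.677), and by population it was -0.05 in A and 0.54 in B. At 24 h it read 586, 678.5 and 821.9 in miR-28 cells, against 515, 629.6 and 804.4 in control cells, a difference of 0.10 ± 0.13. The dim SMAD3 205396_at was at 0.48 ± 0.26 and 0.45 ± 0.26 (adjusted p 0.694 and 0.439). SMAD3 205398_s_at was at -0.11 ± 0.15 and 0.01 ± 0.15 (adjusted p 0.935 and 0.986). On 205397_x_at, a probe set of a kind that can share sequence with other transcripts, the difference was 0.02 ± 0.49 at 12 h (95% interval -0.99 to 1.04) and 0.71 ± 0.49 at 24 h (-0.30 to 1.72; adjusted p 0.53).

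SMAD4, the common partner, read 1412, 1493 and 1795 (lowest, median and highest) on 202527_s_at in miR-28 cells at 12 h, against 1386, 1554 and 1955 in control cells. At 24 h it read 1118, 1392 and 1554 in miR-28 cells, against 1289, 1482 and 1716 in control cells. The ranges overlapped at both times, and the difference was -0.10 ± 0.10 at each (95% interval -0.30 to 0.10; limma adjusted p 0.88 and 0.696). Over its 4 probe sets above the filter the values ran from -0.66 to -0.05 at 12 h and from -0.37 to 0.03 at 24 h.

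**Figure D3:**
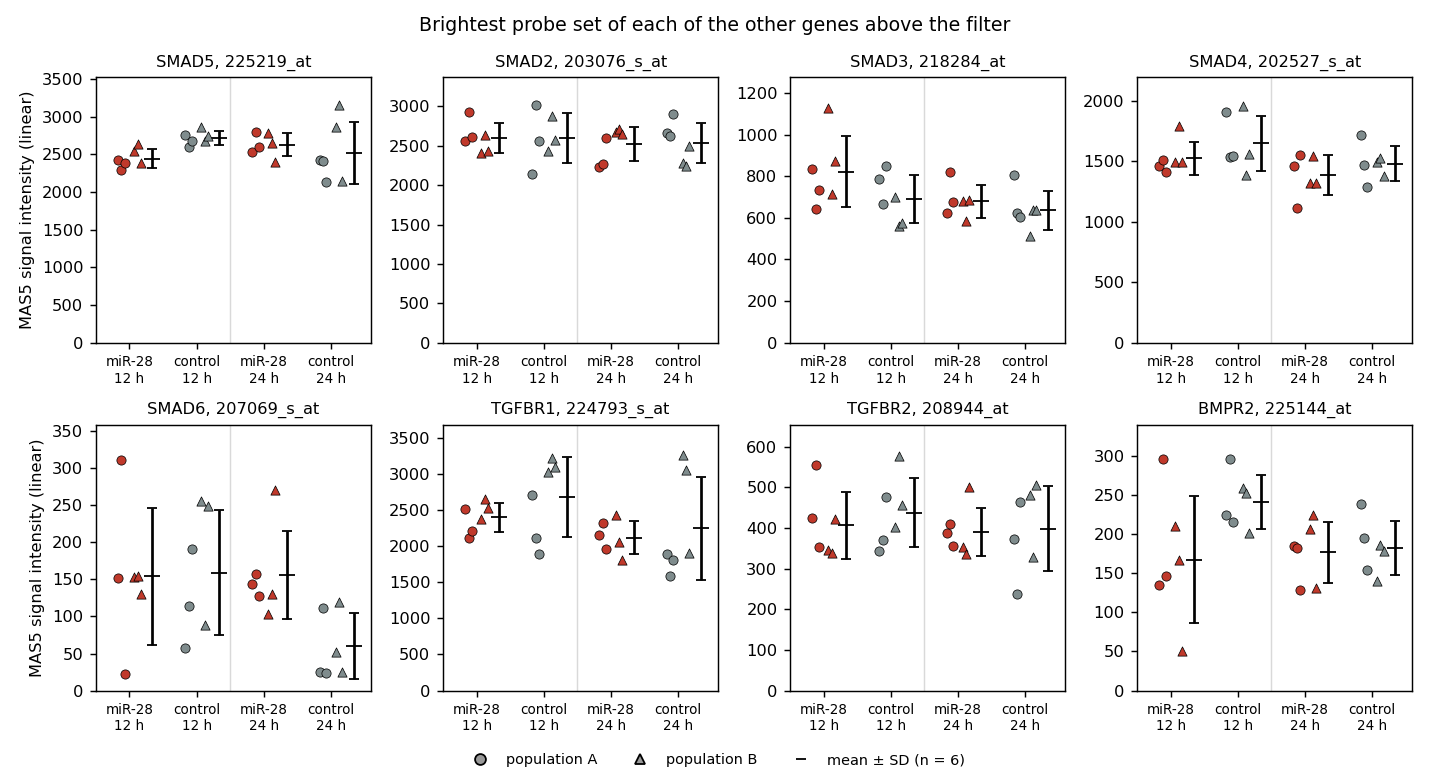
Signal (MAS5 intensity, linear axes from 0, a separate scale for each panel) on each of the 24 arrays for the brightest probe set of the 8 other genes with one above the filter; circles are population A, triangles population B, and bars the mean ± SD of 6 arrays. The miR-28 and control arrays overlap in all panels at both times, and SMAD6 at 24 h has the widest separation, 102.9 to 271.3 in miR-28 cells and 24.21 to 119.4 in control cells.

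SMAD6, which inhibits mainly the BMP branch, had 1 of its 4 probe sets above the filter. On 207069_s_at the arrays at 12 h read 21.91, 153.2 and 311.4 (lowest, median and highest) in miR-28 cells, against 57.63, 152.4 and 256.5 in control cells, a difference of -0.15 ± 0.47. At 24 h they read 102.9, 137.3 and 271.3 in miR-28 cells, against 24.21, 39.17 and 119.4 in control cells. In control cells at 24 h inductions A3, B3 and A1 were lowest, at 24.21, 25.39 and 25.64, while A2 and B2 reached into the miR-28 range at 111.3 and 119.4.

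The SMAD6 difference at 24 h was 1.46 ± 0.47 (95% interval 0.50 to 2.43), with the lowest adjusted p of the 26 (0.0981 in limma), and did not pass. Without miR-28 induction A3 at 12 h (21.91), the value was again 1.46 with a smaller spread, and the adjusted p was 0.0385. The 3 dimmer SMAD6 probe sets, in a fit without the filter, gave 0.92 on 209886_s_at, -1.06 on 213565_s_at and -1.46 on 209887_at at 24 h, and none passed. SMAD7, the other inhibitory SMAD, had 1 probe set, 204790_at, below the filter with means of 48.53 ± 44.72 in miR-28 and 14.68 ± 15.11 in control cells at 12 h, and 23.16 ± 39.97 in miR-28 and 27.33 ± 23.43 in control cells at 24 h (SD, n = 6 each). In a fit without the filter its differences were 0.97 ± 0.62 at 12 h and -0.48 ± 0.62 at 24 h (limma adjusted p 0.833 and 0.861). At 12 h it averaged 9.118 ± 8.113 in miR-28 population A and 87.94 ± 16.58 in miR-28 population B. Control populations A and B averaged 10.8 ± 1.658 and 18.55 ± 22.87 (SD, n = 3 each). At that signal these values do not settle whether SMAD7 differed.

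TGFBR1, the type I receptor kinase of TGF-beta, read 2115, 2444 and 2646 (lowest, median and highest) on 224793_s_at in miR-28 cells at 12 h, against 1889, 2868 and 3215 in control cells. At 24 h it read 1803, 2104 and 2426 in miR-28 cells, against 1580, 1895 and 3257 in control cells. The control arrays enclosed the miR-28 arrays at both times, and the differences were -0.13 ± 0.16 (95% interval -0.47 to 0.21) and -0.04 ± 0.16 (-0.38 to 0.30). The spread of the control arrays followed the populations at 12 h, with means of 2238 in A and 3110 in B, and in part at 24 h, with 1758 in A and 2737 in B.

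The difference of A minus B over both times in control cells was -0.55 on TGFBR1 224793_s_at (95% interval -0.81 to -0.28; limma adjusted p 0.173). It was the lowest adjusted p of the 26 in that comparison, in which 0.00366% of all probe sets and 0 of the 26 passed. Of the 26, 3 had an unadjusted p under 0.05 in control cells, against 7.42% of all. Without control induction B3 at 24 h the TGFBR1 difference was -0.67 (adjusted p 0.0383). In miR-28 cells limma called 0 of the 26 between the populations and 0% of all, and 0 of the 26 had an unadjusted p under 0.05, against 4.8% of all.

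The dimmer TGFBR1 probe set 206943_at was at 1.18 ± 0.49 at 24 h (95% interval 0.17 to 2.20; limma adjusted p 0.224). It read 75.24, 126.8 and 246.7 (lowest, median and highest) in miR-28 cells, against 8.462, 86.53 and 139.3 in control cells, so the ranges overlapped. The third, 236561_at, was at -0.21 ± 0.19 at 12 h and 0.09 ± 0.19 at 24 h. TGFBR1 thus gave 3 values at 24 h that ran from -0.04 to 1.18 and none that passed.

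TGFBR2, the type II receptor of TGF-beta, read 338.5, 388.1 and 555.7 (lowest, median and highest) on 208944_at in miR-28 cells at 12 h, against 342.5, 429.4 and 577.3 in control cells. At the later time it read 335.9, 371.7 and 500.4 in miR-28 cells, against 237.9, 418.6 and 506.3 in control cells. The ranges overlapped widely, and the differences were -0.10 ± 0.16 (95% interval -0.45 to 0.24) and 0.00 ± 0.16 (-0.34 to 0.34). Its second probe set was below the filter.

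BMPR2, a type II receptor for BMPs, was dim on all 6 of its probe sets, 3 of which were above the filter. On 225144_at the miR-28 arrays at 12 h read 51.05, 156.5 and 295.5 (lowest, median and highest), against 200.9, 238.4 and 296.5 on the control arrays. The difference of -0.65 ± 0.25 had the lowest adjusted p of the 26 at 12 h (0.471 in limma) and did not pass, and the highest miR-28 array was level with the highest control array. At 24 h the same probe set was at -0.05 ± 0.25 (95% interval -0.56 to 0.46). The other BMPR2 values above the filter ran from -0.08 to 0.38 over both times.

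None of the 26 probe sets passed for a change with time in either genotype. In miR-28 cells limma called 0 of 26 between 24 h and 12 h, against 1.88% of all probe sets, and 1 had an unadjusted p under 0.05 (15.4% of all). That was SMAD4 1565703_at, which read 107.3, 158.2 and 268.6 at 24 h, against 162.7, 274.2 and 407 at 12 h, a difference of -0.68 ± 0.23 (adjusted p 0.13). In control cells it called 0 of 26, against 3.09% of all, and 4 had an unadjusted p under 0.05 (16.7% of all).

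The 4 in control cells were SMAD2 235598_at at 0.72 ± 0.31 (limma adjusted p 0.233), SMAD6 207069_s_at at -1.38 ± 0.48 (adjusted p 0.128), TGFBR1 206943_at at -1.35 ± 0.51 (adjusted p 0.16) and TGFBR1 236561_at at -0.68 ± 0.20 (adjusted p 0.0641). TGFBR1 236561_at read 302.6, 398.1 and 770.2 in control cells at 24 h, against 513, 679.7 and 932.2 at 12 h. At 24 h 5 of the 6 arrays lay below every array at 12 h, and induction B1 (770.2) lay among the 12 h values. Without that array the difference was -0.85 and the adjusted p 0.00758, and without control induction A1 at 12 h it was -0.76 with an adjusted p of 0.0395. In miR-28 cells the same probe set was at -0.38 ± 0.20 (adjusted p 0.376).

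**Figure D4:**
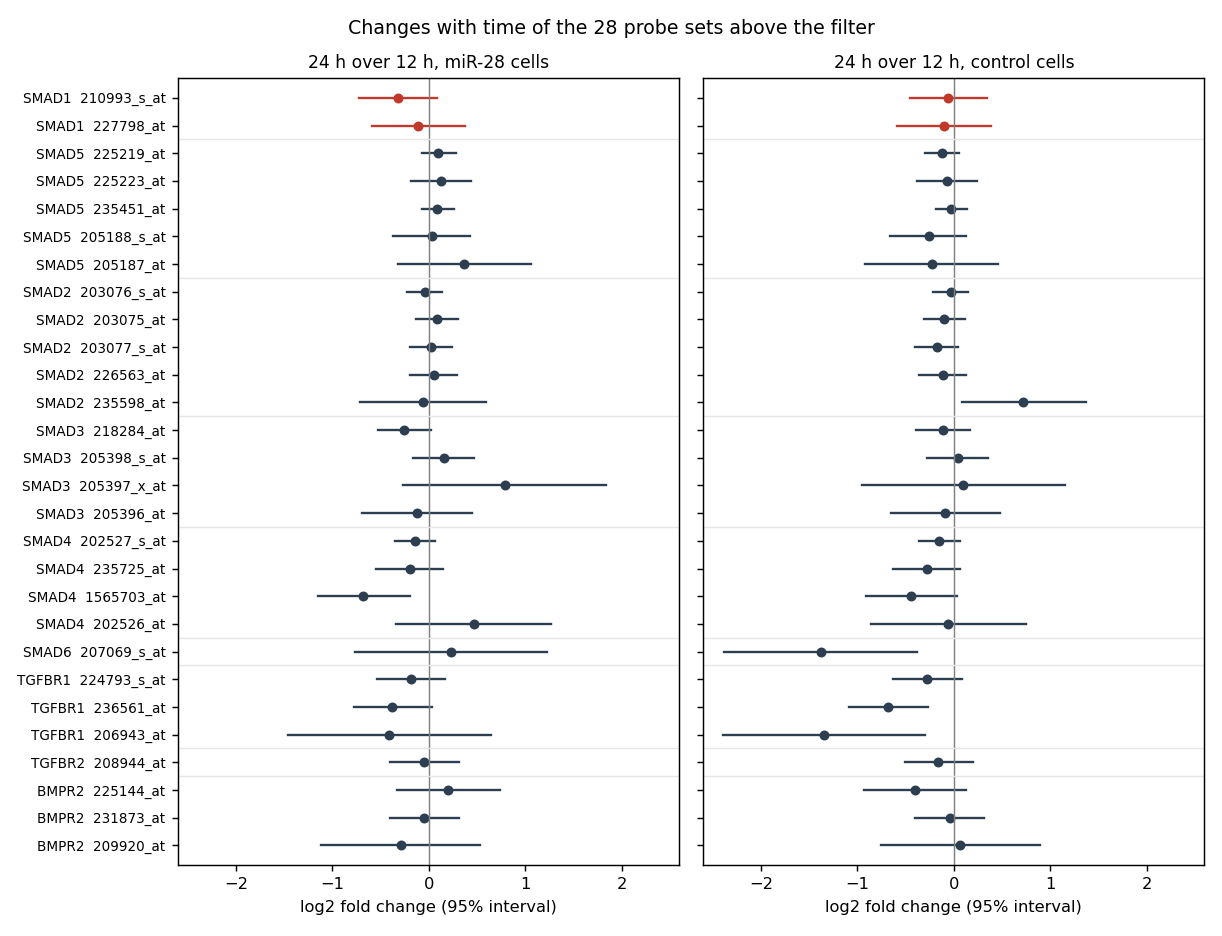
Log2 fold change of 24 h over 12 h with its 95% interval for the 28 probe sets above the filter, in miR-28 cells (left) and control cells (right), red for SMAD1. SMAD1 lies at -0.32 and -0.11 in miR-28 cells and at -0.06 and -0.10 in control cells; the intervals away from 0 are those of SMAD4 1565703_at in miR-28 cells and of SMAD2 235598_at, SMAD6 207069_s_at, TGFBR1 236561_at and TGFBR1 206943_at in control cells.

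Whether the miR-28 effect differed between 24 h and 12 h was tested as an interaction. Limma called 0 of the 26 and 0% of all probe sets, and 1 of 26 had an unadjusted p under 0.05 (5.82% of all). It was SMAD6 207069_s_at, at 1.61 ± 0.68 for 24 h less 12 h (95% interval 0.19 to 3.03; adjusted p 0.782), which did not pass.

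Within groups, the correlations between these genes were spread about 0. Over 339 pairs of probe sets of different genes among the 28, the correlation after group means were taken off had a median of 0.01 and ran from -0.55 to 0.80. The highest joined SMAD5 225223_at and SMAD2 203075_at. Within a gene, the median r was 0.00 over the 10 pairs of SMAD5, -0.15 over the 10 pairs of SMAD2 and 0.03 over the 3 pairs of TGFBR1. These values describe arrays that share a scaling and a labelling protocol, and carry no test.

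A list of 72 other genes of the pathway was described beside them, of which 69 had a probe set analysed here and 40 had one above the filter, 100 probe sets in all. At 12 h limma called 0 of the 100, against 0.165% of all probe sets tested, and 7 had an unadjusted p under 0.05, against 8.02% of all. At 24 h, with 14 at an unadjusted p under 0.05 (15.7% of all), it called 2 lower and 0 higher (2% of the 100, against 2.75% of all probe sets tested), both in the list of inhibitors and turnover genes, where they were 4.17% of 48 probe sets. Of the 9 ligand, 3 receptor, 26 SMAD and SMAD-partner and 14 target probe sets above the filter, limma called 0 at either time, with 2 at an unadjusted p under 0.05 at 12 h (8.02% of all) and 8 at 24 h (15.7% of all). The medians over the 100 were -0.05 at 12 h (0.00 over all) and -0.01 at 24 h (0.01 over all).

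USP9X, a deubiquitinase that acts on SMAD4, fell on 201099_at at 24 h. It read 1479, 1644 and 1705 (lowest, median and highest) in miR-28 cells, against 1956, 2131 and 2333 in control cells. The groups did not overlap, and the log2 fold change was -0.38 ± 0.07 (limma adjusted p 0.00206). The other 3 USP9X probe sets gave -0.79, -0.09 and -0.08 and did not pass. The call held in 32 of 36 alternatives, of which 24 each left out a single array and so shared most of the data. It was lost within either population alone and with population means as the unit. With 1 probe set a gene, which tests another USP9X probe set, there was no call.

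PPM1A, a phosphatase known to act on receptor-regulated SMADs, fell on 229027_at at 24 h by 0.81 ± 0.22 on the log2 scale (limma adjusted p 0.0466). It averaged 198 ± 47 in miR-28 cells and 359.3 ± 114.7 in control cells (SD, n = 6 each), and the ranges overlapped. The call was lost in 22 of 36 alternatives, and the other 5 PPM1A probe sets gave -0.25 to 0.00 and did not pass. ID1, a transcript known to be raised by SMAD1 and SMAD5, was below the filter. It averaged 56.65 ± 39.22 in miR-28 and 24.54 ± 26.57 in control cells at 12 h, and 35.55 ± 20.87 in miR-28 and 31.82 ± 29.52 in control cells at 24 h (SD, n = 6 each). A difference in ID1 was not tested, and none is read from these low values.

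**Figure D5:**
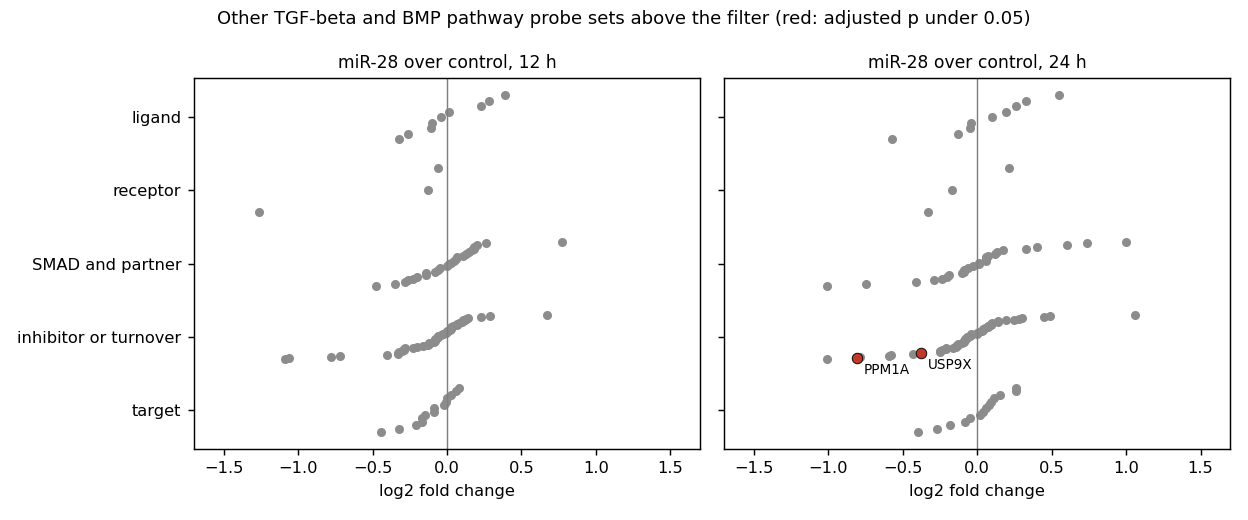
Log2 fold change of miR-28 over control at 12 h (left) and 24 h (right) for the 100 probe sets of the pathway list above the filter, sorted within each role, red where the limma adjusted p was under 0.05. No point is red at 12 h, and at 24 h the red points are USP9X (-0.38) and PPM1A (-0.81).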

How the data were processed

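RNA of P3HR1 cells was measured on 24 arrays in 4 groups of 6. Per the labels' protocols, 6 ug of RNA went into biotin-labelled cRNA. The authors deposited linear intensity per probe set, made with MAS5 per the submitters' processing notes, with its settings not given in the sources used here. Precision is limited by how many arrays there were. The 62 control probe sets were left out. Symbols came from the platform annotation and were updated through a RefSeq gene table (54 had no match there).

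Values were analysed as log2(intensity + 8), which understates the change of dim genes. The filter of 6.108 is the median of all probe sets that are no controls. Group means of genotype and time were fitted in R 4.3.3 (limma 3.58.1, statmod 1.5.0). Population within vector entered as a random block (consensus correlation -0.0249). With a correlation below 0 this block did not make the genotype tests stricter. At 24 h 403 probe sets were called lower and 348 higher with it, against 336 and 282 without it. All p-values were adjusted by Benjamini-Hochberg over 27306 probe sets. A fit of 8 means gave the population differences. On simulated data for the 24 h comparison (27306 probe sets, 200 changed), 31.8%, 73.1% and 79.1% of changes of 0.5, 1 and 1.5 log2 units were called. The simulated data held no differences between populations and were fitted with a block correlation of 0. These rates may therefore not hold for the real arrays.

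The genes and lists were chosen with earlier results of these data known. All member probe sets above the filter were named or given by their range. Of the pathway list, genes called at either time, SMAD9 and ID1 were named, and the 5 probe sets most like SMAD1 by each correlation. The alternatives changed the pseudocount, scaling, filter, probe set choice, block, population and arrays. Leaving out the 2 arrays of high ACTB ratio was added after seeing the data. miR-28-5p, proteins and target sites were not analysed here.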

Additional observations from a re-analysis of the deposited data

Results flagged for a closer look

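In 13 of 112 groups of 6 arrays (28 probe sets in 4 groups), the highest or lowest array stood apart from the rest by Dixon's test on the log2 scale. Chance flags about 1 in 20 groups, which is 5.6 of 112. Of the 13, 2 were on miR-28 B2 at 12 h and 3 on control B2 at 24 h, the 2 arrays with a high ACTB ratio. Whether the ratio bears on these values was not tested. No SMAD1 group was among the 13.

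Among the receptor-regulated SMADs, SMAD5 205188_s_at read 352.4 on miR-28 A3 at 24 h (the other 5 at 543.2 to 586.3) and 231.9 on control B2 at 24 h (463.6 to 545.7). SMAD5 205187_at read 161.6 on miR-28 B2 at 12 h (320.7 to 457.1) and 260.4 on miR-28 B3 at 24 h (431.4 to 582.6). SMAD2 203075_at was high on control B2 at 24 h, at 3027 (2161 to 2335), and SMAD2 235598_at low on control A1 at 12 h, at 52.58 (122.5 to 173.4). SMAD3 205396_at read 38.04 on control B3 at 24 h (119.6 to 178.6).

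Among the partner, inhibitor and receptor genes, SMAD4 202527_s_at was high on miR-28 B2 at 12 h, at 1795 (1412 to 1512). SMAD6 207069_s_at was low on miR-28 A3 at 12 h, at 21.91 (130.4 to 311.4). TGFBR1 236561_at was high on control B1 at 24 h, at 770.2 (302.6 to 429.5), and TGFBR1 206943_at low on control B2 at 12 h, at 32.74 (140.5 to 248.9). BMPR2 231873_at was high on miR-28 B1 at 12 h, at 218.3 (116.4 to 137.6), and BMPR2 209920_at low on control B2 at 24 h, at 21.7 (90.54 to 114.2).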

How the results depend on the processing

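SMAD1 210993_s_at kept its sign in all 36 alternatives, at -1.21 to -0.76 at 12 h and -1.60 to -0.88 at 24 h, where the ends at 24 h were population B alone (-1.60) and A alone (-0.88). Leaving out single arrays gave -1.06 to -0.92 and -1.34 to -1.12. Nothing is read from the kept sign, since SMAD1 was chosen on this contrast. Of the alternatives, 24 each left out a single array and so shared most of the data. The counts of other SMAD and receptor probe sets called stayed at 0 in all alternatives for both directions at 12 h, lower at 24 h, time in miR-28 cells, the interaction and, in the 32 that give it, the populations of miR-28 cells. With single arrays left out they were 0 to 1 for higher at 24 h (SMAD6), for time in control cells (TGFBR1) and for the populations of control cells (TGFBR1, without B3 at 24 h). Arrays of the same letter and number did not deviate together (r -0.11 to 0.06, 0 of 6 over 0.1 and 1 of 6 closest to its own number in each pair of groups), and with these numbers as a replicate block limma called 1 for time in control cells (TGFBR1 236561_at, adjusted p 0.0165). The cause was not tested. The 108 other values gave 3814 results over the alternatives, of which 3796 moved by less than the SD between replicates with no change of call, 14 moved by more, all within single populations, 4 became called and 0 lost a call.

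The pathway count at 24 h, 2 as reported, was 1 with median centring, with no filter, with no population block and with the replicate block, and 0 with 1 probe set a gene (which tests other USP9X and PPM1A probe sets), in population A alone, in B alone and with population means. It was 1 to 2 with single arrays left out. PPM1A lost its call without control A2 or B3 or miR-28 A1 or A3 at 12 h, and without control A2, B1, B2 or B3 or miR-28 A1, A2, A3, B1 or B3 at 24 h. ZEB2 203603_s_at was called higher in 4 alternatives and ACVR1B 213198_at lower in 1.

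Over all probe sets limma called 33 lower and 12 higher at 12 h and 403 and 348 at 24 h. Without the filter these were 14 and 7, and 185 and 117. The replicate block gave 19 and 7 at 12 h (351 and 298 at 24 h), population A alone 0 and 0 (0 and 2), B alone 0 and 0 (1 and 0), and population means 0 in all. With single arrays left out, the count lower at 12 h was 15 (without control A2 at 12 h) to 41 (without control B2 at 24 h). Median centring moved the median of all probe sets at 24 h to 0.07 and gave 198 lower and 425 higher, 31.8% lower against 53.7% as reported. Low signal limits SMAD6, SMAD7 and most BMPR2 probe sets.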

Other observations

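Beyond the single SMAD7 probe set, 10 of the 39 probe sets were below the filter, 1 each of SMAD1, SMAD2, SMAD4 and TGFBR2 and 3 each of SMAD6 and BMPR2. BMPR2 210214_s_at, in a fit without the filter, was at 0.80 ± 0.48 at 12 h and -1.10 ± 0.48 at 24 h (limma adjusted p 0.817 and 0.427). It averaged 66.35 ± 39.97 in miR-28 cells and 33.45 ± 25.41 in control cells at 12 h, and 23.97 ± 15.48 in miR-28 cells and 66.62 ± 44.45 in control cells at 24 h (SD, n = 6 each). SMAD6 209887_at averaged 19.76 ± 27.89 in miR-28 cells and 57.1 ± 30.65 in control cells at 24 h, a difference of -1.46 ± 0.50 (adjusted p 0.262), where the brighter SMAD6 207069_s_at was at 1.46 ± 0.47.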
